A study of Homo sapiens with 12 samples.

Results

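The response to B cell receptor stimulation was followed in U-2932 cells that stably expressed Roquin2 with the Y691F substitution, in which a tyrosine is replaced by phenylalanine. U-2932 is an established human line derived from diffuse large B cell lymphoma. The 6 libraries were chosen by their genotype and treatment labels. The 3 untreated libraries stood against 3 from cells given F(ab')2-IgM, an antibody fragment that engages surface IgM, at 10 µg/ml for 12 h. They are 6 of the 12 polyA+ RNA libraries of the study. The other 6 come from U-2932 cells stably expressing wild-type (WT) Roquin2, with 3 untreated and 3 given the same F(ab')2-IgM dose and time. All cells were grown in RPMI with 10% FBS. Both lines carried an introduced Roquin2, and no group lacks one. The vector, its promoter, whether each line is 1 clone and whether the cells kept their own Roquin2 are, in the sources used here, not given. The submitters describe the replicates as independent biological ones. Of 60675 genes in the count table, 27806 had at least 1 count in a Y691F library, and 15112 passed the filter on low counts and were tested.

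The B cell receptor is a membrane immunoglobulin that signals through its CD79A and CD79B chains to the kinases LYN, SYK and BTK. From there the signal reaches calcium and NFAT, ERK and its immediate early genes, NF-kB and PI3 kinase. Roquin2, the product of RC3H2, and its paralogue Roquin1 (RC3H1) are RNA-binding proteins that hold mRNAs of immune regulators down by recruiting deadenylation and decay factors to stem loops in them. The study's title asks how expression of the Y691F form bears on mRNA levels after receptor stimulation.

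Totals were 16754981 to 20431651 counts in the Y691F libraries and 16465393 to 21478790 in the WT libraries. Levels below are CPM, counts per 1e6 counts of a library whose size is scaled by TMM, edgeR's trimmed-mean factor for library composition, given per library or as mean ± SD over 3 libraries. A gene was called where edgeR's quasi-likelihood test gave a Benjamini-Hochberg adjusted p under 0.05 over the 15112 genes. Log2 changes are IgM minus untreated, with SE the standard error. The biological coefficient of variation was 2.51%, so small changes passed the test. Mitochondrial transcripts took 7.84% to 8.82% of the counts in the Y691F libraries. TMM factors were 1.05 to 1.07 untreated and 0.939 to 0.948 with IgM. Scaling by library totals alone moved the median change of all genes to -0.18, from -0.011 with TMM, which bears on every small change below.

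RC3H2, the gene of the introduced protein, had no call, at 209, 209 and 208 CPM untreated and 206, 207 and 204 CPM with IgM (log2 -0.02, SE 0.03, adjusted p = 0.556). The 3 IgM libraries lay just below the 3 untreated ones, and the gene was called lower with library totals (-0.19) and with a filter of 5 CPM in 3 libraries (-0.074). In the WT line the same gene stood at 109, 111 and 111 CPM untreated and 120.0, 119.8 and 123 CPM with IgM. Counts per gene cannot separate the introduced transcript from the cells' own, so they do not check the substitution. The substituted codon lies in the coding sequence of RC3H2 on chr9:122858879-122858881 of GRCh38, minus strand, in exon 12 of 21 of transcript RC3H2-202. It is shown with 12 bases on each side, as the reference sequence that the Y691F form departs from, with the substituted codon (TAT, a tyrosine codon) in capitals.
RC3H2: ccttctggaatgTATgctcctgtgtac

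IgM moved most of the transcriptome of Y691F cells: 5600 genes rose and 5853 fell, together 75.8% of those tested (37.1% and 38.7%), and 3659 passed in neither direction. Changes of at least 2-fold were fewer, with 1220 genes higher (8.07%) and 2173 lower (14.4%). The list counts below are to be read beside these shares, since most genes were called. Of the 11453 called genes, 10932 had all 3 IgM libraries on one side of all 3 untreated ones. Over all tested genes, the IgM libraries lay wholly above in 37.2% and wholly below in 38.4%. The direction went with level. Among the 2147 genes over 100 CPM, 1316 rose and 618 fell, whereas among the 4263 genes of 1 to 10 CPM 1028 rose and 1901 fell. With library totals the counts became 4245 higher and 7265 lower, and the share of called genes that were higher went from 48.9% to 36.9%. All 5853 falls were called under that scaling too, as were 1212 of the 1220 rises of at least 2-fold. In bulk RNA, fewer cells of a type and less RNA per cell cannot be told apart.

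**Figure D1:**
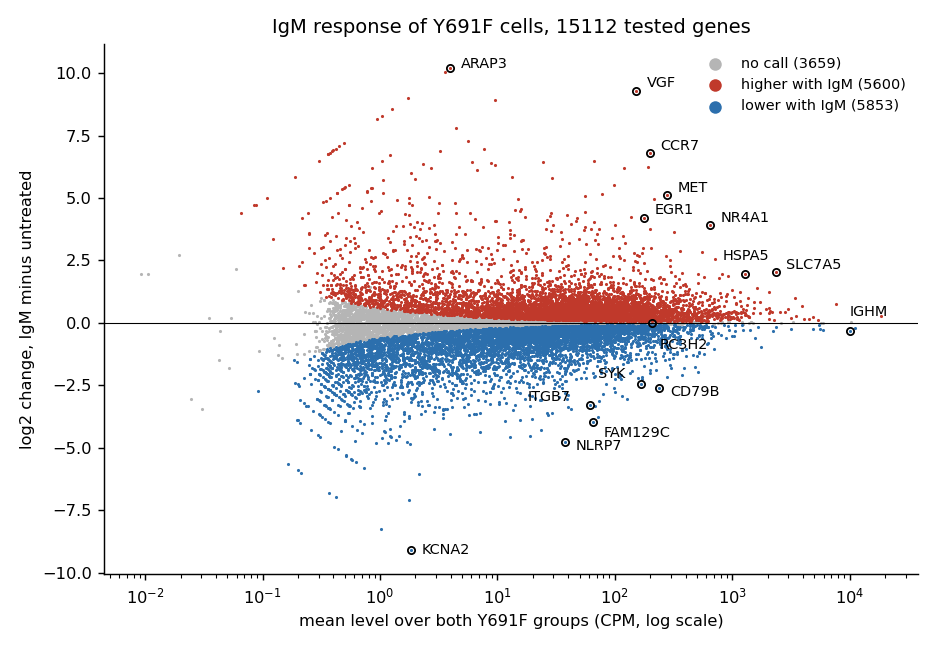
Change with IgM in Y691F cells (log2, IgM minus untreated) against mean level over both Y691F groups (CPM, log axis) for the 15112 tested genes, 1 point per gene, coloured by call. Rises lead on the right, over 100 CPM (1316 against 618), and falls lead below 10 CPM; named genes are ringed.

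The largest rises among genes with at least 100 CPM in the higher group were in a secreted peptide precursor, receptors, a chemokine and regulators of G protein signalling. VGF, a neuropeptide precursor, was at 0.552, 0.414 and 0.453 CPM untreated and 324, 303 and 275 CPM with IgM (log2 9.28, SE 0.086, adjusted p = 2.76e-77). CCR7, the chemokine receptor that guides lymphocytes toward T cell zones, was at 3.40, 3.73 and 3.58 CPM untreated and 395, 396 and 386 CPM with IgM (log2 6.78, SE 0.054, adjusted p = 6.34e-91). In both genes every IgM library lay above every untreated one, which was a condition for being named among the largest changes. The small GTPase GEM was at 1.66, 1.35 and 1.36 CPM untreated and 132, 130.1 and 134 CPM with IgM (log2 6.49, SE 0.076). RGS1, which shortens G protein signals from chemokine receptors, was at 5.34, 5.39 and 4.23 CPM untreated and 375, 376 and 373 CPM with IgM (log2 6.23, SE 0.052). LY9, a SLAM-family surface receptor, was at 2.53, 4.30 and 2.82 CPM untreated and 242, 239 and 228 CPM with IgM (log2 6.21, SE 0.064). The IgM libraries of these 3 genes were also clear of the untreated ones, by the same condition. The rest of the 8 were CCL3, a chemokine, which rose from 4.25 ± 0.213 to 193 ± 3.37 CPM (log2 5.50, SE 0.059), the repressor BHLHE40, from 4.28 ± 1.16 to 152 ± 5.76 CPM (log2 5.15, SE 0.066), and MET, the receptor for hepatocyte growth factor, from 15.6 ± 1.44 to 540.5 ± 5.73 CPM (log2 5.11, SE 0.043). CCL3 shares reads with near-identical copies, so its count is uncertain.

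Several rises started from nothing or nearly nothing. ARAP3, a GTPase-activating protein, had 0 reads in the untreated Y691F libraries and 414 with IgM. Against a floor of 3 reads over the group this is at least 160-fold. On the same floor FOXA1, a pioneer transcription factor, rose at least 144-fold (371 reads with IgM), the cross-linking enzyme TGM2 at least 70.5-fold (182 reads), the protease ADAMTS3 at least 51.5-fold (133 reads) and the kinase PRKG1 at least 42.6-fold (110 reads). Each of these 5 was absent from all 3 untreated libraries and present in all 3 IgM libraries. Groups without overlap were a condition for naming them. DUSP4, a nuclear phosphatase of ERK, had 2 reads untreated and 1007 with IgM, a ratio of 585 (95% counting interval 162 to 4838). The gap junction gene GJA3 had 2 and 469 reads (273, 75.0 to 2257), the stress cytokine GDF15 1 and 126 (146, 25.8 to 5829) and SEMA6A, a transmembrane semaphorin, 1 and 109 (127, 22.3 to 5049). These intervals cover counting error only. CD109, a surface glycoprotein, was at 0.184, 0.104 and 0.0504 CPM untreated and 16.01, 15.6 and 14.3 CPM with IgM (log2 6.98, SE 0.22).

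Falls of the same kind included a potassium channel, adhesion molecules and B cell genes. KCNA2, a voltage-gated potassium channel, had 222 reads untreated and 0 with IgM, at least 63.7-fold lower on the floor of 3 reads. PRR15L went from 214 reads to 1, a ratio of 184 (32.7 to 7307). Among the more abundant genes, FAM129C was at 125, 119 and 121 CPM untreated and 7.78, 7.83 and 7.54 CPM with IgM (log2 -3.98, SE 0.059, adjusted p = 1.21e-70). ITGB7, the integrin beta chain of gut-homing lymphocytes, was at 114, 109.8 and 107 CPM untreated and 10.3, 12.6 and 11.3 CPM with IgM (log2 -3.27, SE 0.055, adjusted p = 2.83e-66). The IgM libraries of both genes lay below every untreated one, again a condition for naming them. The kinase WNK2 fell from 135 ± 5.16 to 9.91 ± 1.66 CPM (log2 -3.77, SE 0.059), the synaptic gene RIMS3 from 123 ± 0.848 to 12.1 ± 1.40 CPM (log2 -3.34, SE 0.054), the smooth muscle myosin gene MYH11 from 132 ± 1.74 to 15.1 ± 1.45 CPM (log2 -3.13, SE 0.05) and the lysyl oxidase LOXL2 from 228 ± 2.84 to 27.8 ± 1.13 CPM (log2 -3.04, SE 0.041). SH3TC1 and GRAP, a GRB2-related adaptor, closed this list of 8 with log2 changes of -2.93 and -2.83. Lower down in level, the inflammasome-related gene NLRP7 fell from 72.5 ± 0.580 to 2.66 ± 0.467 CPM (log2 -4.78, SE 0.079), NAV2 from 36.3 ± 1.55 to 1.56 ± 0.0883 CPM (log2 -4.53, SE 0.10), OLFML2A from 7.53 ± 0.153 to 0.353 ± 0.204 CPM (log2 -4.43, SE 0.21) and the variable segment IGLV6-57 from 24.3 ± 0.293 to 1.003 ± 0.172 CPM (log2 -4.58, SE 0.13). The chemokine receptor CXCR3 (from 2.11 ± 0.172 to 0.0965 ± 0.0368 CPM (log2 -4.38, SE 0.40)), the adhesion molecule CEACAM1 (from 2.40 ± 0.596 to 0.0933 ± 0.0587 CPM (log2 -4.57, SE 0.40)) and ANK3, a membrane-skeleton adaptor (from 1.99 ± 0.139 to 0.0761 ± 0.0308 CPM (log2 -4.59, SE 0.43)), fell at low level. So did 3 noncoding genes, AATBC (log2 -4.78), LINC00282 (log2 -4.70) and IFNG-AS1 (log2 -4.38). The libraries keep strand, but the counting setting is not given, so reads of AATBC and IFNG-AS1 cannot be told apart from those of genes they overlap.

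**Figure D2:**
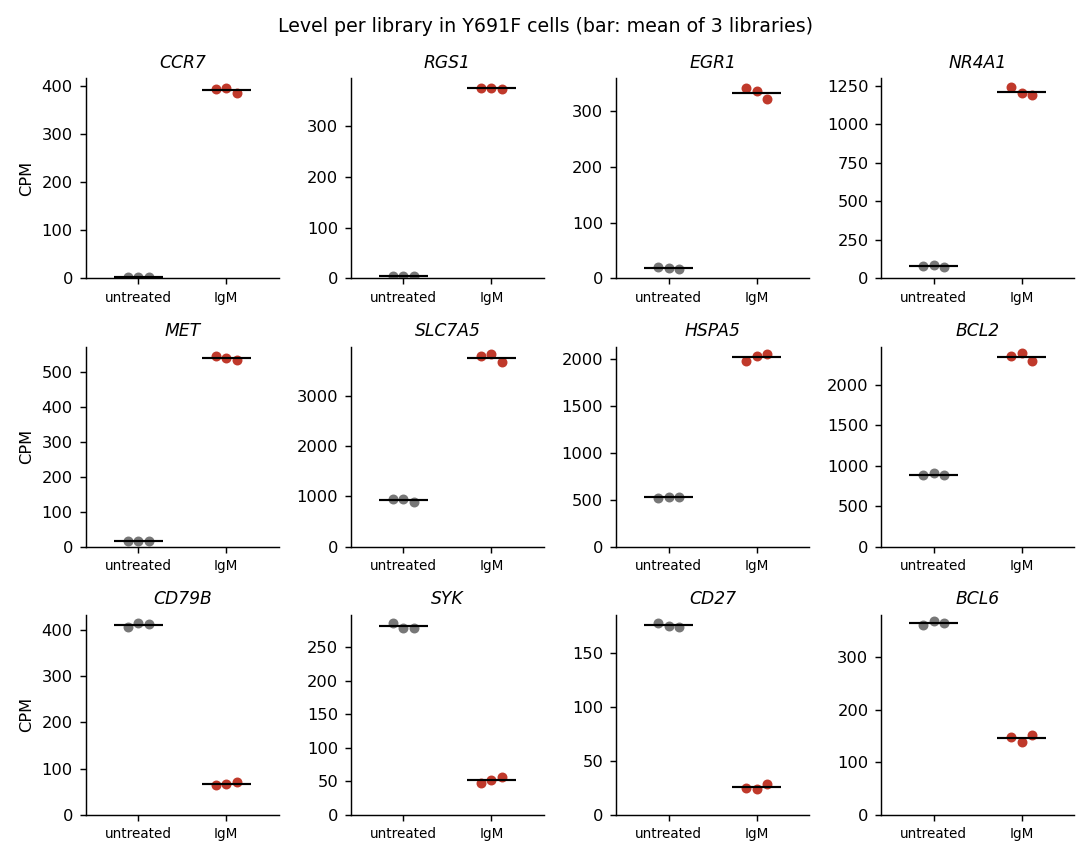
Level of 12 genes in each Y691F library (CPM, linear axes from 0), untreated and with IgM; points are libraries and the bar is the mean of 3. In every panel the 2 groups are apart, with CCR7 going from 3.57 to 393 CPM and CD79B from 411 to 67.2 CPM on average.

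The receptor's own signalling chain fell more often than it rose. Of 30 B cell receptor signalling genes tested, 19 fell and 9 rose (median log2 -0.34, against -0.011 over all tested genes), beside 38.7% and 37.1% of all genes. CD79B, one of the 2 signalling chains, was at 406, 415 and 413 CPM untreated and 64.4, 66.7 and 70.3 CPM with IgM (log2 -2.62, SE 0.034, adjusted p = 9.23e-75). SYK, the kinase that docks on them, was at 287, 279 and 279 CPM untreated and 48.0, 51.8 and 57.1 CPM with IgM (log2 -2.43, SE 0.039, adjusted p = 6.26e-67). For both, all IgM libraries were below all untreated ones. The Src-family kinase BLK fell from 189 ± 9.13 to 77.4 ± 1.84 CPM (log2 -1.29, SE 0.037), the PI3 kinase subunit PIK3CD from 109 ± 3.82 to 24.1 ± 0.913 CPM (log2 -2.17, SE 0.046) and the adaptor DAPP1 from 56.5 ± 0.883 to 11.9 ± 0.572 CPM (log2 -2.25, SE 0.063). FYN, another Src-family kinase, went the other way from 11.2 ± 0.788 to 60.4 ± 1.48 CPM (log2 2.43, SE 0.061). Inhibitory coreceptors and brakes on the receptor had 10 falls and 6 rises among 18 tested of 23 (median -0.35). CSK, which switches off Src-family kinases, fell from 733 ± 26.4 to 317 ± 4.35 CPM (log2 -1.21, SE 0.029), the lipid phosphatase INPP5D from 119 ± 4.44 to 62.2 ± 3.09 CPM (log2 -0.94, SE 0.039) and the inhibitory Fc receptor FCGR2B from 15.2 ± 0.347 to 2.22 ± 0.147 CPM (log2 -2.77, SE 0.12). The phosphatase PTPN6 rose from 14.6 ± 0.358 to 64.8 ± 1.71 CPM (log2 2.14, SE 0.057), the adaptor DOK3 from 239 ± 9.45 to 523 ± 19.8 CPM (log2 1.13, SE 0.031) and the coreceptor CD72 from 2.37 ± 0.0992 to 12.2 ± 1.11 CPM (log2 2.36, SE 0.13).

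Most immediate early transcription factors were higher at 12 h. Of 24 tested, 21 rose and 2 fell, and 17 of the rises were at least 2-fold (median 2.10). The orphan nuclear receptor NR4A1 was at 83.2, 84.0 and 75.8 CPM untreated and 1241, 1206 and 1194 CPM with IgM (log2 3.91, SE 0.035, adjusted p = 6.44e-82). EGR1, a zinc finger factor induced through ERK, was at 20.4, 17.8 and 16.3 CPM untreated and 343, 337 and 322 CPM with IgM (log2 4.20, SE 0.044, adjusted p = 9.64e-79). The IgM libraries of both were clear above the untreated ones. NR4A3 rose from 13.3 ± 0.960 to 418 ± 12.2 CPM (log2 4.97, SE 0.048), the EGR corepressor NAB2 from 16.3 ± 1.14 to 173 ± 2.204 CPM (log2 3.40, SE 0.047) and IER2 from 23.7 ± 1.59 to 221 ± 7.32 CPM (log2 3.22, SE 0.044). The 2 that fell were IER5 (log2 -0.14) and MYC (log2 -0.31), named here after their values were seen. IER5 lost the call without untreated replicate 2 (-0.096) or without IgM replicate 3 (-0.090). The list named for ERK feedback phosphatases and Sprouty proteins, which holds other genes as well, had 14 rises and 1 fall among 18 tested (median 1.15). The falls were 2 with library totals and 0 without IgM replicate 3. DUSP2 rose from 86.2 ± 5.72 to 638 ± 36.2 CPM (log2 2.89, SE 0.042), DUSP5 from 5.26 ± 0.155 to 64.8 ± 4.42 CPM (log2 3.63, SE 0.07), DUSP10 from 7.84 ± 0.346 to 72.9 ± 2.44 CPM (log2 3.22, SE 0.063), DUSP16 from 3.71 ± 0.814 to 74.1 ± 2.45 CPM (log2 4.30, SE 0.078) and PHLDA1 from 1.02 ± 0.0532 to 57.2 ± 3.37 CPM (log2 5.804, SE 0.10). Calcineurin and NFAT genes split into 9 rises and 11 falls among 23 (median 0.027, and -0.14 with library totals), beside 37.1% and 38.7% of all genes. The transcription factor NFATC1 rose from 160.2 ± 9.71 to 338 ± 12.3 CPM (log2 1.08, SE 0.033) and CSNK1A1, a kinase that acts on NFAT, from 76.1 ± 4.21 to 153 ± 1.60 CPM (log2 1.01, SE 0.036), while the calcium sensor STIM2 fell from 125 ± 1.15 to 59.2 ± 1.90 CPM (log2 -1.08, SE 0.039) and the calcium release channel ITPR3 from 275 ± 8.77 to 166 ± 6.61 CPM (log2 -0.73, SE 0.032).

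Within NF-kB, the subunits NFKB1, REL and RELA rose, and the target genes were evenly divided. Of 30 subunits and regulators, 17 rose and 8 fell (median 0.20). NFKB1 was at 139, 143 and 135 CPM untreated and 499, 521 and 497 CPM with IgM (log2 1.86, SE 0.03, adjusted p = 1.56e-67), and REL, the subunit prominent in B cells, was at 106, 103 and 114 CPM untreated and 379, 373 and 362 CPM with IgM (log2 1.79, SE 0.034, adjusted p = 6.64e-60). All IgM libraries lay above the untreated ones for both. RELA rose from 125 ± 5.43 to 195 ± 1.24 CPM (log2 0.64, SE 0.033), the inhibitor NFKBIE from 79.9 ± 2.70 to 241 ± 4.16 CPM (log2 1.59, SE 0.033) and the adaptor TRAF1 from 104 ± 3.38 to 251 ± 6.56 CPM (log2 1.27, SE 0.033), and the kinase IKBKE fell from 176 ± 2.90 to 42.3 ± 1.04 CPM (log2 -2.06, SE 0.039). TNFAIP3, the A20 deubiquitinase that ends NF-kB signals, was at 40.6, 42.5 and 41.0 CPM untreated and 72.3, 74.2 and 71.4 CPM with IgM (log2 0.81, SE 0.045), with all IgM libraries higher. Among 34 NF-kB target genes, 17 rose and 16 fell (median 0.22), beside 37.1% and 38.7% of all genes. CCR7, CCL3 and CD83, an activation marker of antigen-presenting cells, rose (CD83 from 170.2 ± 4.95 to 471 ± 12.8 CPM (log2 1.47, SE 0.031)). The chemokine CCL4 also rose from 1.76 ± 0.205 to 32.9 ± 1.64 CPM (log2 4.22, SE 0.10), with its copies sharing reads.

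TNF family ligands and receptors moved both ways, with 12 rises and 13 falls among 26 tested of 31 (median -0.12), and 6 and 11 of them by at least 2-fold. Over all genes 37.1% rose and 38.7% fell. The receptor TNFRSF18 (GITR) rose from 10.03 ± 0.489 to 136 ± 7.46 CPM (log2 3.76, SE 0.053), TNFRSF1B from 29.3 ± 1.44 to 186 ± 1.98 CPM (log2 2.66, SE 0.045) and TNFRSF13B (TACI) from 96.6 ± 4.63 to 193 ± 6.61 CPM (log2 0.997, SE 0.035). CD27, a memory and germinal center marker, was at 178, 175 and 174 CPM untreated and 25.2, 23.8 and 28.7 CPM with IgM (log2 -2.77, SE 0.046, adjusted p = 3.47e-67). The groups did not overlap. CD40, the receptor for T cell help, fell from 69.5 ± 1.56 to 22.2 ± 1.71 CPM (log2 -1.65, SE 0.053) and the ligand LTB from 66.7 ± 3.46 to 16.5 ± 0.382 CPM (log2 -2.02, SE 0.055). Chemokines and secreted cytokines had 11 rises and 4 falls among 19 tested of 35 (median 1.55). VEGFA, the angiogenic growth factor, rose from 12.1 ± 0.758 to 122 ± 7.33 CPM (log2 3.34, SE 0.052), TGFB1 from 73.5 ± 4.03 to 216 ± 5.68 CPM (log2 1.55, SE 0.037) and the CCL3 copy CCL3L3 from 1.32 ± 0.301 to 29.6 ± 0.874 CPM (log2 4.47, SE 0.11), while IL16 fell from 182 ± 5.04 to 41.6 ± 1.47 CPM (log2 -2.13, SE 0.04). Migration and positioning receptors were balanced, with 14 rises and 13 falls among 27 (median 0.11, and -0.057 with library totals). RGS2 rose from 38.7 ± 3.36 to 311 ± 9.59 CPM (log2 3.01, SE 0.04) and the integrin chain ITGA4 from 20.8 ± 1.31 to 81.4 ± 5.03 CPM (log2 1.97, SE 0.052), whereas the cannabinoid receptor CNR2 fell from 50.2 ± 2.27 to 3.90 ± 0.617 CPM (log2 -3.68, SE 0.082). Costimulation and checkpoint genes had 10 rises and 6 falls among 18 tested of 27 (median 0.72). SLAMF7 rose from 47.5 ± 1.32 to 591 ± 9.89 CPM (log2 3.64, SE 0.035), CD48 from 58.1 ± 1.09 to 178 ± 1.41 CPM (log2 1.61, SE 0.036) and PDCD1, which encodes PD-1, from 0.449 ± 0.155 to 26.0 ± 0.0980 CPM (log2 5.85, SE 0.15). SLAMF6 fell from 25.7 ± 2.14 to 2.66 ± 0.112 CPM (log2 -3.26, SE 0.11).

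Ribosome biogenesis was the list with the largest share of rises among the 50. All but 1 of its 40 genes rose (39, and 0 fell), against 37.1% over all genes, with a median of 0.93. NPM1, a nucleolar chaperone, was at 668, 699 and 719 CPM untreated and 1607, 1631 and 1707 CPM with IgM (log2 1.245, SE 0.028, adjusted p = 1.61e-56). LYAR, a nucleolar protein of rRNA processing, was at 73.0, 74.9 and 74.5 CPM untreated and 204, 194 and 208 CPM with IgM (log2 1.44, SE 0.036, adjusted p = 5.30e-54). All IgM libraries exceeded all untreated ones in both. The helicase DDX21 rose from 148 ± 6.40 to 359 ± 13.7 CPM (log2 1.28, SE 0.032), RRP12 from 58.4 ± 0.459 to 149.8 ± 3.78 CPM (log2 1.36, SE 0.038), TSR1 from 119 ± 2.80 to 243 ± 4.28 CPM (log2 1.03, SE 0.032) and the pseudouridine synthase DKC1 from 162 ± 0.851 to 318 ± 6.68 CPM (log2 0.97, SE 0.03).

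MYC and its MAX partners bind the E-box CACGTG, which reads the same on both strands, and ribosome biogenesis genes are known MYC targets. MYC itself fell in Y691F cells (log2 -0.31), with a response below the WT one (difference -0.97). The median of the ribosome biogenesis list was 0.93 in Y691F and 0.86 in WT cells. The part of MYC in these rises was not tested. Among 14 network genes tested of 16, 5 rose and 5 fell (median 0.021), near the 37.1% and 38.7% of all genes. With library totals 3 rose and 9 fell (median -0.15). The MAX-binding repressors MXD4 and MXD3 fell, MXD4 from 121 ± 5.69 to 30.1 ± 1.91 CPM (log2 -2.01, SE 0.046) and MXD3 from 34.4 ± 1.74 to 5.87 ± 0.0380 CPM (log2 -2.55, SE 0.079), while MXD1 rose from 11.9 ± 0.683 to 25.5 ± 1.42 CPM (log2 1.11, SE 0.072). MYCBP fell from 15.7 ± 1.34 to 8.14 ± 0.165 CPM (log2 -0.95, SE 0.088), and MLX and MXI1 rose by 0.27 and 0.63 on the log2 scale. CACGTG was searched in RefSeq promoters of GRCh38.p14, from 250 bases before to 50 after each listed start site. It was found in 15 of the 34 ribosome biogenesis genes with a promoter in that table (44.1%), in 1296 of 10188 distinct symbols of tested genes (12.7%) and in 8.77% of the table's 27305 genes. The share was 14.5% of genes that rose, 11.4% of those that fell and 11.7% of the rest, and 14.8% and 10.3% of those that rose and fell at least 2-fold. These shares were not tested against each other. In the amino acid transporter list it was 6 of 17 (35.3%), and in serine, one-carbon and nucleotide synthesis 7 of 23 (30.4%). These are matches of letters, not measured binding. Windows were taken only upstream of start sites. That of NOP10, which rose by 0.47 on the log2 scale, has the motif 170 bases before the start site and is not shown. The 4 windows below come from ribosome biogenesis genes that rose by 0.95 to 1.44 on the log2 scale, to show where the motif (in capitals) sits. They are LYAR at chr4:4290068-4290097 (minus strand, 64 bases before the start site), DDX21 at chr10:68956604-68956633 (plus, 31 before), CIRH1A at chr16:69132619-69132648 (plus, 16 before) and UTP20 at chr12:101280075-101280104 (plus, 10 before).
LYAR: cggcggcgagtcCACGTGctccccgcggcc
DDX21: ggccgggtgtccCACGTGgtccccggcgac
CIRH1A: tgagagcgcgcgcgCACGTGgggccggggc
UTP20: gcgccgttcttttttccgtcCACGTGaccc

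Most genes of the other translation lists rose too. Of 23 tRNA synthetase genes, 16 rose and 5 fell (median 0.34), with WARS from 177 ± 2.23 to 436 ± 5.61 CPM and VARS from 278 ± 6.49 to 526 ± 11.2 CPM among the rises and AARS from 386 ± 7.92 to 233 ± 4.83 CPM among the falls. Cytosolic ribosomal proteins showed 28 rises and 4 falls among 34, none as large as 2-fold (median 0.27), and 7 falls with library totals. RPS9 rose from 601 ± 9.92 to 954 ± 29.1 CPM (log2 0.67, SE 0.028) and RPS19 from 837 ± 29.8 to 1139 ± 39.8 CPM (log2 0.44, SE 0.028). Amino acid transporters had 12 rises and 7 falls among 19 tested of 20 (median 0.38). SLC7A5, the light chain of the large neutral amino acid transporter, was at 945, 953 and 878 CPM untreated and 3777, 3825 and 3669 CPM with IgM (log2 2.02, SE 0.029, adjusted p = 8.81e-69). Its heavy chain SLC3A2 was at 205, 217 and 204 CPM untreated and 814, 837 and 808 CPM with IgM (log2 1.97, SE 0.03, adjusted p = 1.44e-69). Both chains of the transporter rose, with no overlap between groups. The glutamine transporters SLC1A5 and SLC38A1 rose from 622 ± 25.7 to 1139 ± 4.61 CPM and from 319 ± 11.1 to 633 ± 9.71 CPM.

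Biosynthetic lists were more mixed. Serine, one-carbon and nucleotide synthesis had 16 rises and 10 falls among 29 (median 0.16, and -0.0079 with library totals). The purine enzymes IMPDH2 and ATIC rose from 183 ± 5.85 to 334 ± 5.77 CPM and from 256 ± 10.8 to 377 ± 14.4 CPM, whereas thymidylate synthase TYMS fell from 221 ± 12.4 to 104 ± 1.78 CPM and the serine pathway genes PHGDH and PSAT1 from 199 ± 5.803 to 113 ± 3.64 CPM and from 49.8 ± 2.28 to 20.6 ± 1.83 CPM. Polyamine metabolism had 9 rises and 6 falls among 17 tested (median 0.16, and -0.0060 with library totals). Its first enzyme ODC1 rose from 569 ± 7.07 to 1191 ± 15.6 CPM (log2 1.07, SE 0.027), spermidine synthase SRM from 321 ± 13.4 to 597 ± 10.8 CPM (log2 0.89, SE 0.029) and the catabolic enzyme SAT1 from 35.1 ± 1.70 to 202 ± 1.41 CPM (log2 2.52, SE 0.04). In cholesterol synthesis and uptake, 19 of 26 tested genes rose and 4 fell (median 0.67), the latter 7 with library totals. The sterol sensor partner INSIG1 rose from 253 ± 1.71 to 905 ± 23.6 CPM (log2 1.84, SE 0.028), the oxygenase SQLE from 202 ± 4.94 to 587 ± 22.9 CPM (log2 1.54, SE 0.03) and HMGCS1 from 97.5 ± 3.49 to 257 ± 3.19 CPM (log2 1.40, SE 0.034). Fatty acid synthesis and desaturation split 10 to 8 among 21 (median 0.11, and -0.057 with library totals), beside 37.1% and 38.7% of all genes. Fatty acid synthase FASN rose from 1225 ± 62.4 to 2907 ± 109 CPM (log2 1.247, SE 0.03) and LPIN1 from 105 ± 3.54 to 381 ± 7.70 CPM (log2 1.86, SE 0.032), and the mitochondrial carboxylase ACACB fell from 56.0 ± 0.751 to 19.1 ± 0.430 CPM (log2 -1.55, SE 0.055).

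Glucose uptake and glycolysis genes rose in 18 of 25 cases and fell in 4 (median 0.24), with one large change. SLC2A3, a glucose transporter, was at 5.20, 5.13 and 4.23 CPM untreated and 107, 111 and 97.9 CPM with IgM (log2 4.44, SE 0.066, adjusted p = 3.39e-70). All IgM libraries were higher. Hexokinase HK2 rose from 47.5 ± 3.80 to 137 ± 6.39 CPM (log2 1.53, SE 0.042), PFKFB3 from 70.0 ± 6.44 to 163 ± 1.49 CPM (log2 1.22, SE 0.04) and LDHA from 778 ± 27.8 to 1359.9 ± 29.2 CPM (log2 0.81, SE 0.028), and ENO2 fell from 91.2 ± 1.63 to 50.01 ± 3.74 CPM (log2 -0.86, SE 0.043). Hypoxia-responsive genes outside glycolysis had 15 rises and 0 falls among 17 tested of 23 (median 0.63). EGLN1, a prolyl hydroxylase, rose from 30.3 ± 1.70 to 87.6 ± 7.198 CPM (log2 1.53, SE 0.05) and the demethylase KDM3A from 40.7 ± 3.18 to 95.4 ± 3.16 CPM (log2 1.23, SE 0.046). Nuclear oxidative phosphorylation genes had 8 rises and 14 falls among 32 (median -0.058), and none reached 2-fold. With library totals there were 5 rises and 24 falls (median -0.23). UQCRFS1 rose from 100.1 ± 3.50 to 189 ± 4.57 CPM (log2 0.92, SE 0.034) and NDUFB5 fell from 90.2 ± 2.26 to 51.1 ± 0.689 CPM (log2 -0.82, SE 0.041). Of 13 mitochondrially encoded mRNAs, 3 rose and 4 fell, all by under 0.3 on the log2 scale (median 0.038, and -0.13 with library totals). With library totals 1 rose and 8 fell, and without IgM replicate 3 the rises were 6. MT-CO2 fell by 0.27 and MT-ND2 rose by 0.25.

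Nearly the whole endoplasmic reticulum (ER) list rose. Of 24 ER chaperone and unfolded protein response genes, 23 rose and 1 fell, and 13 rises were at least 2-fold (median 1.09). HSPA5, the BiP chaperone, was at 513, 529 and 529.8 CPM untreated and 1986, 2035 and 2056 CPM with IgM (log2 1.95, SE 0.029, adjusted p = 3.87e-70). HSP90B1, the ER form of HSP90, was at 311, 342 and 342 CPM untreated and 1297, 1265 and 1319.9 CPM with IgM (log2 1.96, SE 0.031, adjusted p = 1.20e-64). The untreated and IgM libraries were far apart for both chaperones. P4HB rose from 577 ± 24.7 to 1427 ± 29.3 CPM (log2 1.31, SE 0.029), the cochaperone DNAJB11 from 119.7 ± 1.97 to 311 ± 6.33 CPM (log2 1.38, SE 0.032) and calnexin (CANX) from 559 ± 22.05 to 1248 ± 31.2 CPM (log2 1.16, SE 0.028). The fall was SYVN1, a ubiquitin ligase of the ER, named after its value was seen (log2 -0.59). ATF4 and integrated stress response genes had 12 rises and 4 falls among 16 tested of 20 (median 1.05). DDIT3 (CHOP) rose from 8.63 ± 0.668 to 116 ± 5.96 CPM (log2 3.75, SE 0.057), the phosphatase subunit PPP1R15A from 44.5 ± 2.23 to 359.7 ± 4.16 CPM (log2 3.02, SE 0.036), ATF4 from 356 ± 12.7 to 815 ± 20.7 CPM (log2 1.195, SE 0.028) and SESN2 from 29.6 ± 2.03 to 63.2 ± 3.31 CPM (log2 1.10, SE 0.05). Heat shock genes had 8 rises and 8 falls among 22 tested (median 0.20), near the 37.1% and 38.7% of all genes. HSPA8 rose from 1757 ± 56.6 to 2444 ± 117 CPM (log2 0.48, SE 0.028) and DNAJB6 from 88.9 ± 2.95 to 150.5 ± 6.48 CPM (log2 0.76, SE 0.037), while HSP90AA1 fell from 1858 ± 46.1 to 1239 ± 38.9 CPM (log2 -0.58, SE 0.027) and HSPH1 from 196 ± 7.86 to 113 ± 3.72 CPM (log2 -0.79, SE 0.035).

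Survival genes changed in opposite directions. BCL2, which blocks mitochondrial apoptosis, was at 880.2, 909 and 879.9 CPM untreated and 2357, 2398 and 2298 CPM with IgM (log2 1.40, SE 0.027, adjusted p = 5.44e-62). BCL2L1, which encodes the related BCL-XL, was at 222, 222 and 214 CPM untreated and 84.5, 76.3 and 85.2 CPM with IgM (log2 -1.42, SE 0.038, adjusted p = 4.82e-48). Neither gene's groups overlapped, one rising and the other falling. Of 16 BCL2 family genes tested, 9 rose and 5 fell (median 0.26), beside 37.1% and 38.7% of all genes. The pro-apoptotic genes HRK, BIK and BAK1 rose, HRK from 8.19 ± 0.731 to 47.7 ± 3.50 CPM, BIK from 93.3 ± 2.77 to 205 ± 0.512 CPM and BAK1 from 38.4 ± 0.515 to 75.3 ± 2.67 CPM. Among p53 targets 12 rose and 7 fell of 23 tested (median 0.11, and -0.062 with 11 falls with library totals). The CDK inhibitor CDKN1A rose from 92.3 ± 1.86 to 183 ± 2.23 CPM (log2 0.98, SE 0.035) and BTG2 from 417 ± 4.64 to 885 ± 22.04 CPM (log2 1.08, SE 0.028), and RRM2B fell from 63.9 ± 2.84 to 20.6 ± 1.30 CPM (log2 -1.63, SE 0.054) and FDXR from 13.0 ± 0.356 to 1.96 ± 0.249 CPM (log2 -2.74, SE 0.13). FOXO targets and quiescence genes had 14 rises and 11 falls among 27 tested of 34 (median 0.18). IRS2 rose from 20.2 ± 1.94 to 89.1 ± 3.05 CPM (log2 2.14, SE 0.052) and TOB2 from 69.1 ± 0.937 to 145 ± 2.70 CPM (log2 1.06, SE 0.036), and KLF13 fell from 344 ± 13.2 to 200.2 ± 2.92 CPM (log2 -0.78, SE 0.03).

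Most genes of the replication and mitosis lists fell. DNA replication and licensing had 30 falls and 3 rises among 34 genes (median -0.48), of which 3 falls were at least 2-fold. With library totals the rises were 1. LIG1, the replicative ligase, was at 186, 193 and 186 CPM untreated and 68.4, 65.7 and 75.0 CPM with IgM (log2 -1.44, SE 0.037, adjusted p = 2.24e-52), with all IgM libraries lower. UHRF1, which maintains DNA methylation at the fork, fell from 161 ± 4.01 to 60.6 ± 1.38 CPM (log2 -1.41, SE 0.037), the licensing factor CDT1 from 126 ± 6.16 to 57.7 ± 2.63 CPM (log2 -1.13, SE 0.041), the helicase subunit MCM3 from 419 ± 1.13 to 278 ± 5.44 CPM (log2 -0.59, SE 0.029) and the sliding clamp PCNA from 344 ± 4.48 to 228 ± 3.12 CPM (log2 -0.60, SE 0.029), and the flap endonuclease FEN1 rose from 196 ± 1.98 to 339.7 ± 5.13 CPM (log2 0.80, SE 0.029). G2/M and spindle genes had 22 falls and 4 rises among 30 (median -0.28). BIRC5 (survivin) fell from 137 ± 2.16 to 56.2 ± 1.43 CPM (log2 -1.29, SE 0.038), the phosphatase CDC25B from 251 ± 8.91 to 135 ± 2.68 CPM (log2 -0.90, SE 0.033) and cyclin CCNB2 from 103 ± 5.23 to 63.4 ± 2.499 CPM (log2 -0.69, SE 0.04), and CKS2 rose from 141 ± 3.93 to 200.5 ± 3.32 CPM (log2 0.50, SE 0.032). Of 22 tested D cyclin, CDK4/6 and CDK inhibitor genes, 13 fell and 7 rose (median -0.27). Cyclin D3 (CCND3) fell from 73.5 ± 3.36 to 24.1 ± 0.607 CPM (log2 -1.60, SE 0.052), E2F2 from 182 ± 6.59 to 43.4 ± 2.56 CPM (log2 -2.07, SE 0.04) and the inhibitor CDKN2C from 149 ± 8.18 to 40.5 ± 1.36 CPM (log2 -1.88, SE 0.042), while CDK4 rose from 193 ± 7.96 to 271 ± 1.75 CPM (log2 0.49, SE 0.031). Replication-dependent histones had 6 rises and 4 falls among 16 (median 0.17, and -0.0012 with library totals), with 2 falls without untreated replicate 3. Their transcripts mostly lack polyA tails and share sequence, so in polyA+ libraries HIST1H2BK (from 50.4 ± 2.88 to 135 ± 5.56 CPM) and HIST1H1C (from 32.7 ± 1.80 to 87.4 ± 2.30 CPM) are uncertain.

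Germinal center identity genes fell in 21 of 29 cases and rose in 7, with 14 falls of at least 2-fold (median -0.95). With library totals 4 rose. BCL6, the master repressor of that stage, was at 362, 369 and 364 CPM untreated and 147, 139 and 151 CPM with IgM (log2 -1.32, SE 0.031, adjusted p = 2.00e-55). PAX5, which maintains B cell identity, was at 589, 583 and 553 CPM untreated and 227, 229 and 236 CPM with IgM (log2 -1.32, SE 0.029, adjusted p = 4.98e-57). Every IgM library was below every untreated one for both. MARCKSL1 fell from 283 ± 8.46 to 106 ± 2.26 CPM (log2 -1.41, SE 0.033). LMO2, also a germinal center gene, rose from 4.15 ± 0.552 to 53.5 ± 0.847 CPM (log2 3.69, SE 0.078) and the repressor BACH2 from 37.0 ± 1.14 to 116 ± 3.94 CPM (log2 1.66, SE 0.043). Plasma cell genes had 15 rises and 8 falls among 23 tested (median 0.47). PRDM1, which encodes BLIMP1 and drives plasma cell differentiation, was at 14.2, 15.0 and 13.9 CPM untreated and 130.1, 132 and 123 CPM with IgM (log2 3.16, SE 0.052, adjusted p = 3.29e-67). FAM46C rose from 5.13 ± 0.263 to 87.3 ± 5.07 CPM (log2 4.09, SE 0.068) and FKBP11 from 49.5 ± 1.06 to 142 ± 10.46 CPM (log2 1.52, SE 0.043), while CD38 fell from 182 ± 2.23 to 94.2 ± 0.109 CPM (log2 -0.95, SE 0.034) and the kinase PIM2 from 212 ± 4.44 to 90.5 ± 3.16 CPM (log2 -1.22, SE 0.035). BCL6 and PRDM1, which repress each other's programmes, moved in opposite directions in the same libraries.

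Immunoglobulin constant and surrogate chain genes had 11 falls and 2 rises among 14 tested of 18 (median -1.41). IGHG3 fell from 42.4 ± 1.41 to 4.93 ± 0.213 CPM (log2 -3.10, SE 0.08), IGHG1 from 11.5 ± 0.452 to 2.26 ± 0.337 CPM (log2 -2.35, SE 0.12), IGHG4 from 8.05 ± 1.08 to 0.999 ± 0.124 CPM (log2 -3.02, SE 0.17), IGLL5 from 193 ± 8.08 to 76.1 ± 1.37 CPM (log2 -1.35, SE 0.037) and the surrogate chain VPREB3 from 21.97 ± 0.766 to 1.44 ± 0.211 CPM (log2 -3.92, SE 0.12), and IGHA1 rose from 6.70 ± 0.429 to 22.6 ± 0.343 CPM (log2 1.75, SE 0.085). The constant genes share sequence, so reads may be split among them. MHC class II and loading genes had 10 rises and 8 falls among 19 tested (median 0.35), beside 37.1% and 38.7% of all genes. HLA-DRB1 rose from 166 ± 4.20 to 499.7 ± 11.9 CPM (log2 1.59, SE 0.03), HLA-DQA1 from 137 ± 1.74 to 409 ± 2.77 CPM (log2 1.58, SE 0.03), HLA-DQB1 from 30.7 ± 0.494 to 114 ± 1.54 CPM (log2 1.90, SE 0.044), HLA-DQA2 from 39.6 ± 1.06 to 98.9 ± 3.60 CPM (log2 1.32, SE 0.043) and HLA-DRA from 343 ± 7.76 to 727 ± 12.2 CPM (log2 1.09, SE 0.028), and the promoter factor RFX5 fell from 160.3 ± 2.71 to 66.6 ± 1.56 CPM (log2 -1.27, SE 0.037). HLA genes also share reads. MHC class I and peptide loading genes split 8 higher to 10 lower among 19 (median -0.14). HLA-E rose from 61.9 ± 2.09 to 145 ± 4.41 CPM (log2 1.22, SE 0.038), and the loading factor TAPBP fell from 395 ± 17.8 to 194 ± 3.91 CPM (log2 -1.03, SE 0.031) with the immunoproteasome subunits PSMB8 from 75.2 ± 3.19 to 30.5 ± 0.656 CPM (log2 -1.30, SE 0.048) and PSMB9 from 41.9 ± 2.19 to 14.1 ± 1.63 CPM (log2 -1.57, SE 0.067).

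Cytokine receptor, JAK, STAT and SOCS genes had 19 rises and 9 falls among 31 tested of 35 (median 0.25). STAT3 was at 69.6, 74.1 and 71.2 CPM untreated and 305, 312 and 302 CPM with IgM (log2 2.10, SE 0.034, adjusted p = 1.24e-67). The feedback inhibitor SOCS3 was at 0.138, 0.259 and 0.201 CPM untreated and 17.3, 17.2 and 17.6 CPM with IgM (log2 6.41, SE 0.19). The groups were apart for both genes. IL2RB, the beta chain of the IL-2 and IL-15 receptors, rose from 0.537 ± 0.145 to 48.1 ± 2.45 CPM (log2 6.46, SE 0.12) and the kinase PIM3 from 74.2 ± 4.13 to 476 ± 14.6 CPM (log2 2.68, SE 0.034), and PIM1 fell from 144 ± 5.50 to 57.1 ± 2.31 CPM (log2 -1.33, SE 0.039). Interferon response genes had 9 rises and 9 falls among 22 tested of 33 (median 0.058, and -0.11 with library totals). These counts are near the 37.1% and 38.7% of all genes. The 3 oligoadenylate synthetases rose, OAS1 from 19.0 ± 1.30 to 82.0 ± 5.13 CPM, OAS2 from 17.2 ± 1.08 to 93.7 ± 3.07 CPM and OAS3 from 23.9 ± 1.45 to 191 ± 4.55 CPM, whereas MX2 fell from 65.9 ± 1.44 to 27.5 ± 1.002 CPM, BST2 from 30.7 ± 1.27 to 8.29 ± 0.805 CPM and ISG20 from 75.3 ± 0.986 to 38.5 ± 1.18 CPM.

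**Figure D3:**
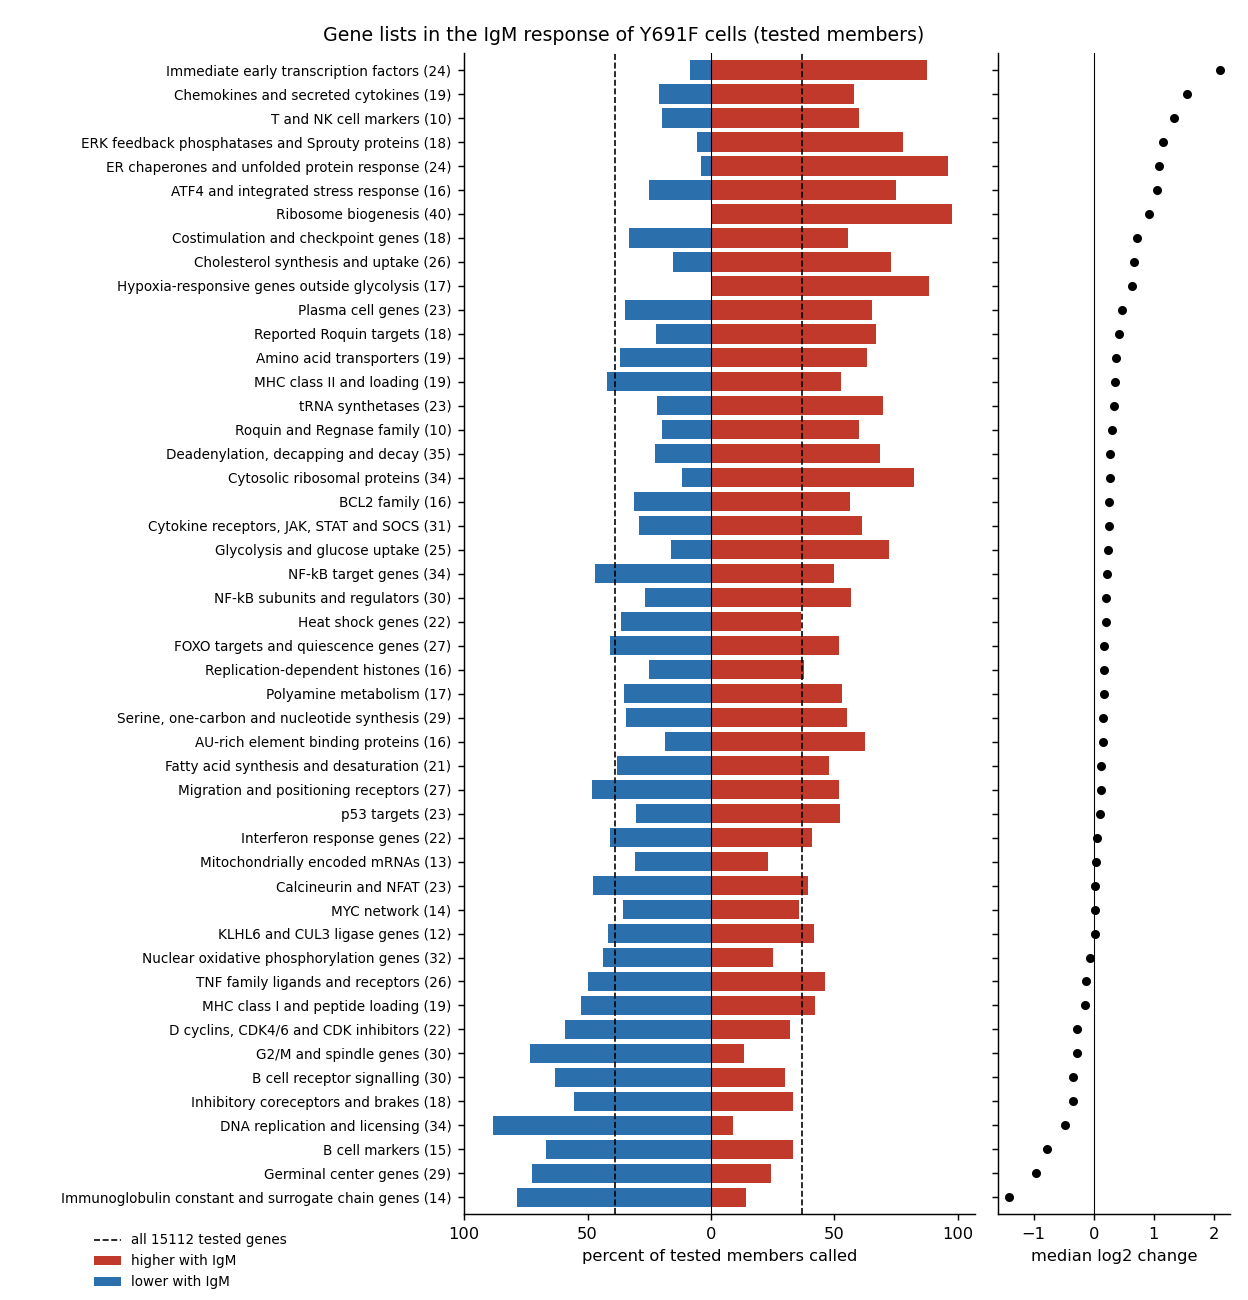
For each gene list with at least 10 tested members, the percent of tested members that rose (right) or fell (left) with IgM in Y691F cells and, at the right, the list's median log2 change; dashed lines mark the percents over all 15112 tested genes (37.1% and 38.7%). Immediate early genes stand at the top with a median of 2.10 and immunoglobulin genes at the bottom with -1.41.

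Roquin's own family and partners were looked at next. All 10 genes of the Roquin and Regnase list were tested, and 6 rose and 2 fell (median 0.31), beside 37.1% and 38.7% of all genes. ZC3H12C, a Regnase-family RNase, was at 19.9, 19.3 and 19.1 CPM untreated and 215, 220.5 and 209 CPM with IgM (log2 3.46, SE 0.044, adjusted p = 2.82e-75). Its relative ZC3H12D was at 31.7, 32.5 and 29.9 CPM untreated and 7.17, 5.31 and 4.75 CPM with IgM (log2 -2.44, SE 0.087). The groups did not overlap in either, and the 2 relatives moved apart. RC3H1, which encodes Roquin1, rose from 46.3 ± 4.04 to 63.3 ± 1.46 CPM (log2 0.45, SE 0.05) and ZC3H12A (Regnase-1) by 0.17 on the log2 scale. The latter is -0.0046 with library totals. The RNA-binding proteins MEX3C, MEX3B and ARID5A rose by 0.75, 0.86 and 0.53, and ZC3H12B fell from 1.54 ± 0.252 to 0.559 ± 0.128 CPM (log2 -1.47, SE 0.29). N4BP1 was at 33.8, 34.0 and 33.4 CPM untreated and 35.9, 31.5 and 33.7 CPM with IgM, with no call and overlapping groups. With library totals it was called lower (-0.17, adjusted p = 0.00362 by edgeR), and the list then had 4 falls. Of 26 mRNAs reported as Roquin targets, 18 were tested, 12 rose and 4 fell (median 0.43). ID3, an inhibitor of E proteins, rose from 50.8 ± 0.960 to 237 ± 15.97 CPM (log2 2.23, SE 0.04), IRF4 from 569 ± 10.1 to 848 ± 10.1 CPM (log2 0.58, SE 0.027) and HMGXB3 from 132 ± 5.96 to 222 ± 3.59 CPM (log2 0.75, SE 0.033), beside REL, TNFAIP3 and the falling BCL6 above. AU-rich element binding proteins had 10 rises and 3 falls among 16 (median 0.16, and -0.0095 with library totals, where 6 rose and 7 fell). The decay activators ZFP36 and ZFP36L1 rose, ZFP36 from 53.6 ± 4.62 to 233 ± 3.96 CPM and ZFP36L1 from 98.9 ± 3.01 to 487 ± 24.4 CPM, and the stabilising factor ELAVL1 fell from 218 ± 4.86 to 159.9 ± 2.21 CPM (log2 -0.45, SE 0.031). Deadenylation, decapping and decay genes had 24 rises and 8 falls among 35 (median 0.28). The decapping gene DCP1A rose from 47.6 ± 0.176 to 110.3 ± 4.53 CPM (log2 1.21, SE 0.041) and BTG1 from 38.2 ± 1.69 to 65.0 ± 1.35 CPM (log2 0.77, SE 0.048), and the deadenylases PARN and PAN2 fell (log2 -1.07 and -0.67). KLHL6, an adaptor of the CUL3 ubiquitin ligase in B cells, was at 393, 384 and 401 CPM untreated and 402, 399 and 419 CPM with IgM (log2 0.048, adjusted p = 0.116), with no call, and with library totals it was called lower at -0.12. Its list had 5 rises and 5 falls among 12 (median 0.02, and -0.15 with 3 rises and 8 falls with library totals, and 3 rises without IgM replicate 2), CUL3 rising from 57.4 ± 2.21 to 85.6 ± 5.03 CPM and KLHL12 falling from 52.5 ± 1.53 to 28.4 ± 2.42 CPM.

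The defining B cell markers were present. All 15 were tested, and 10 of them fell and 5 rose (median -0.79). By at least 2-fold, 7 fell and 1 rose, and the largest rise was log2 1.32. The markers named here were picked by smallest p, and all of them fell. The summed level of the 15 markers was 7199 to 7372 CPM untreated and 5351 to 5501 CPM with IgM. MS4A1 (CD20) fell from 806 ± 42.3 to 339.9 ± 8.19 CPM (log2 -1.25, SE 0.03), CD37 from 352 ± 17.5 to 95.1 ± 2.25 CPM (log2 -1.89, SE 0.034) and FCRLA from 462 ± 4.10 to 209 ± 9.76 CPM (log2 -1.14, SE 0.031). T and NK cell markers summed to 95.1 to 98.1 CPM untreated and 185 to 194 CPM with IgM. Of 23, 10 were tested, 6 of them rose and 2 fell. The rise was carried by the constant genes TRBC2 (from 24.5 ± 0.586 to 99.998 ± 4.32 CPM (log2 2.03, SE 0.048)), TRBC1 (from 5.06 ± 0.456 to 21.9 ± 0.466 CPM (log2 2.11, SE 0.09)) and TRAC (from 6.54 ± 0.183 to 22.9 ± 0.908 CPM (log2 1.80, SE 0.082)). CD3D, CD2, BCL11B, NKG7 and GNLY had 0 reads in all 6 libraries, 15 of the 23 were under 1 CPM, and CD3E had 16 reads untreated and 5 with IgM. LCK and CD247 fell, from 46.6 ± 1.88 to 32.5 ± 1.98 CPM and from 10.01 ± 0.340 to 4.49 ± 0.580 CPM. PRF1, which encodes perforin, had 0 reads untreated and 100 with IgM (at least 38.7-fold) and CD7 2 and 44 (ratio 25.6, 6.67 to 218). NCAM1 rose from 1.43 ± 0.391 to 2.63 ± 0.584 CPM, and LAT (from 0.395 ± 0.0241 to 0.673 ± 0.120 CPM) and CD8A (from 1.35 ± 0.183 to 1.30 ± 0.313 CPM) had no call. The part of these markers in the other results was not tested. Myeloid markers summed to 1.45 to 2.01 CPM untreated and 1.22 to 2.15 CPM with IgM, with 14 of 15 under 1 CPM, 6 at 0 and only CD14 tested (from 1.18 ± 0.0814 to 0.983 ± 0.213 CPM, no call). Fibroblast, endothelial and epithelial markers summed to 23.0 to 27.0 CPM untreated and 24.7 to 27.5 CPM with IgM, with 6 of 16 at 0, among them PDGFRA, CDH5 and CDH1. Of the 5 tested, EPCAM and COL1A2 rose and PECAM1 and DCN fell. EPCAM went from 20.3 ± 1.72 to 22.7 ± 1.22 CPM, called higher by 0.16 and at -0.012 with library totals. It lost the call without untreated replicate 1 (0.092) or without IgM replicate 3 (0.117). EPCAM also had no call with DESeq2's Wald test (0.164) or with a filter of 5 CPM in 3 libraries (0.104). COL1A2 had 2 and 80 reads, a ratio of 46.5 (12.5 to 390), PECAM1 went from 2.32 ± 0.201 to 0.113 ± 0.0947 CPM, DCN from 1.52 ± 0.262 to 0.254 ± 0.112 CPM and COL1A1 from 0.688 ± 0.205 to 0.952 ± 0.0913 CPM, the last with no call.

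The WT line, which shares no library with the Y691F line, gave 5809 genes higher and 5814 lower with IgM (76.9%). Genes higher in both lines numbered 4904, which is 87.6% of the Y691F rises and 84.4% of the WT rises. Genes lower in both numbered 5002, or 85.5% and 86.0%. Across the tested genes, which are not independent replicates, the 2 log2 responses had a Pearson r of 0.91 and a Spearman rho of 0.90. The difference of the responses, Y691F minus WT, was then tested as an interaction. It was called for 3883 genes (25.7%), with the Y691F change above the WT change in 2217 (14.7%) and below it in 1666 (11.0%), and by at least 2-fold in 222 and 186. With library totals 1846 were above and 2134 below, so the share of called differences that were above went from 57.1% to 46.4%, and which direction leads depends on the scaling. Of the 1220 Y691F rises of at least 2-fold, 786 had no such call, 204 exceeded the WT change and 230 fell short of it. Of the 2173 falls, 1641 had none, 371 were smaller than in WT and 161 larger. Opposite calls in the 2 lines were found for 216 genes, 108 each way. Each Roquin2 form is labelled as 1 line, so these p-values measure spread between libraries, not between separately made lines. A difference between the lines cannot be told apart from one due to the substitution. RC3H2 also stood higher untreated in the Y691F line, and its part in the differences was not tested.

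**Figure D4:**
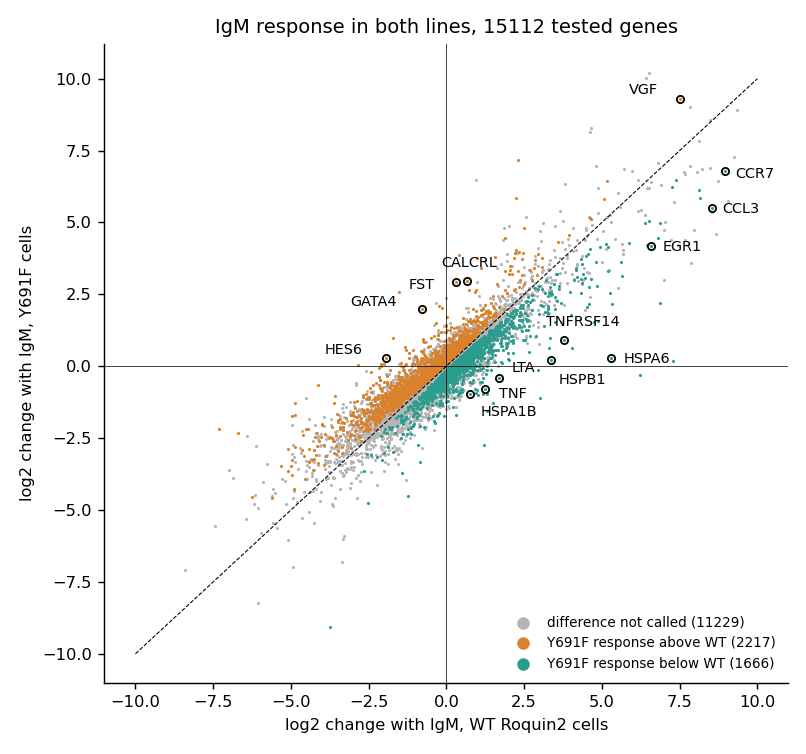
IgM response of Y691F cells against that of WT cells (log2, both axes) for the 15112 tested genes, coloured by the call for the difference of the 2 responses; the dashed line marks equal responses. Most points lie along it (r 0.91), CCR7 and EGR1 lie below it though high in both lines, and FST and CALCRL lie well above it.

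In several activation lists, most of the called differences were below WT, under both scalings. Over all 15112 genes 11.0% were below and 14.7% above, and with library totals 2134 genes were below and 1846 above. In the immediate early list the Y691F change was below the WT change for 14 of 24 genes and above for 1, in NF-kB targets for 23 and 5 of 34, in NF-kB regulators for 13 and 5 of 30, and in MHC class II for 14 and 1 of 19. It was below for 11 of 24 ER genes, 11 of 18 costimulation genes and 11 of 18 reported Roquin targets, and above for 1, 4 and 1. EGR1 in WT cells was at 8.06, 7.08 and 7.17 CPM untreated and 725, 702 and 719.8 CPM with IgM, against 16.3 to 20.4 and 322 to 343 CPM in Y691F cells. The difference was -2.39 (SE 0.085, adjusted p = 4.27e-39), and EGR3 differed by -2.45. Both rose in both lines and rose less in Y691F cells. CCR7 reached 2.28, 1.96 and 1.66 CPM untreated and 979.9, 994 and 951 CPM with IgM in WT cells (difference -2.16, SE 0.15, adjusted p = 1.15e-21), and CCL3 0.901, 1.34 and 0.516 CPM untreated and 360.2, 349.8 and 356 CPM with IgM (difference -3.03). For EGR1, CCR7 and CCL3 the untreated level was higher in the Y691F line and the level with IgM was lower. Their differences therefore hold a gap in the untreated cells as well as one with IgM. TNFRSF14, the HVEM receptor, rose from 6.72 ± 1.14 to 12.7 ± 1.004 CPM in Y691F and from 6.11 ± 0.302 to 84.2 ± 2.10 CPM in WT cells (difference -2.87, SE 0.13, adjusted p = 5.11e-33). The circadian repressor BHLHE41 (difference -2.41) and IGFBP4 (-2.53) also rose in both lines and less in Y691F cells. TNFAIP3 differed by -1.11 and HLA-DQB1 by -1.29. RC3H1 differed by -0.48 and RC3H2, with no call in Y691F cells, by -0.15 (adjusted p = 0.00914 by edgeR). The other way, KLHL6, with no call in Y691F cells, had a response above the WT one by 0.76 (adjusted p = 1.11e-28 by edgeR).

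TNF, the proinflammatory cytokine, fell in Y691F cells, at 40.9, 44.7 and 42.5 CPM untreated and 26.6, 24.0 and 23.4 CPM with IgM (log2 -0.79, SE 0.056), and rose in WT cells, at 26.9, 28.3 and 25.4 CPM untreated and 63.5, 62.6 and 65.2 CPM with IgM (difference -2.03, SE 0.076, adjusted p = 1.28e-38). The untreated level was the higher one in the Y691F line. LTA, the neighbouring lymphotoxin gene, was at 42.9, 44.0 and 42.3 CPM untreated and 32.6, 32.2 and 32.6 CPM with IgM in Y691F cells and 36.0, 32.7 and 34.4 CPM untreated and 116, 106 and 109.8 CPM with IgM in WT cells (difference -2.10, SE 0.068, adjusted p = 5.29e-43). In both genes the groups did not overlap in either line, and the directions were opposite. MYC showed the same pair of directions in Y691F and WT cells, with log2 -0.31 and 0.66 (difference -0.97, adjusted p = 3.99e-12). The stress-inducible HSP70 genes did too. HSPA1B was at 269.5, 272 and 257 CPM untreated and 137, 128 and 144 CPM with IgM in Y691F cells and 374, 355 and 361 CPM untreated and 596, 612 and 639.7 CPM with IgM in WT cells (difference -1.73), and HSPA1A differed by -1.90. The 2 genes share reads. HSPA6, a further HSP70 gene with a close pseudogene, had 16 reads untreated and 17 with IgM in Y691F cells, with no call, and rose from 0.619 ± 0.324 to 25.4 ± 1.503 CPM in WT cells (difference -4.98, SE 0.65). The small heat shock gene HSPB1 went from 1.44 ± 0.183 to 1.65 ± 0.228 CPM in Y691F cells, with no call, and rose from 1.68 ± 0.416 to 17.9 ± 1.63 CPM in WT cells (difference -3.16). In the heat shock list 9 of 22 responses were below WT and 6 above, beside 11.0% and 14.7% of all genes.

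The largest differences above WT were in genes at modest level. FST, the activin antagonist follistatin, was at 4.74, 3.68 and 4.18 CPM untreated and 31.7, 34.8 and 30.7 CPM with IgM in Y691F cells (log2 2.94, SE 0.089) and 1.85, 1.74 and 1.61 CPM untreated and 1.80, 2.27 and 2.36 CPM with IgM in WT cells (difference 2.64, SE 0.23, adjusted p = 1.50e-16). CALCRL, the receptor partner for calcitonin-gene-related peptide, was at 3.13, 4.04 and 4.08 CPM untreated and 30.1, 29.5 and 27.1 CPM with IgM (log2 2.96, SE 0.093) and 4.08, 5.12 and 4.02 CPM untreated and 6.88, 6.91 and 7.14 CPM with IgM in WT (difference 2.31, SE 0.16, adjusted p = 2.42e-21). In FST only the Y691F line gave a call, and in CALCRL both did, with the Y691F IgM libraries well above the rest. CPED1 rose from 0.616 ± 0.239 to 8.87 ± 0.0519 CPM (log2 3.85, SE 0.19) (difference 3.46) and LRRN3 from 1.70 ± 0.321 to 7.18 ± 0.785 CPM (log2 2.08, SE 0.16) (difference 2.31), with no call for either in WT cells. The transcription factor GATA4 rose from 1.89 ± 0.0679 to 7.46 ± 0.472 CPM (log2 1.98, SE 0.15) and fell in WT cells from 2.06 ± 0.469 to 1.19 ± 0.394 CPM (difference 2.76). HES6, a basic helix-loop-helix factor, was at 13.5, 13.8 and 11.0 CPM untreated and 15.8, 16.7 and 14.4 CPM with IgM in Y691F cells (log2 0.30, 0.13 with no call under library totals) and 17.6, 13.8 and 15.6 CPM untreated and 4.55, 3.56 and 4.14 CPM with IgM in WT cells (difference 2.24). LBH had no call in Y691F cells (from 1.15 ± 0.144 to 1.09 ± 0.229 CPM) and fell in WT cells from 6.11 ± 0.821 to 1.36 ± 0.403 CPM (difference 2.10). CORO2B fell in both lines, with log2 -2.39 in Y691F and -4.63 in WT (difference 2.24). VGF, with the largest rise among the abundant genes, exceeded its WT change by 1.79 (SE 0.35, adjusted p = 2.98e-05), and MET by 0.45.

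**Figure D5:**
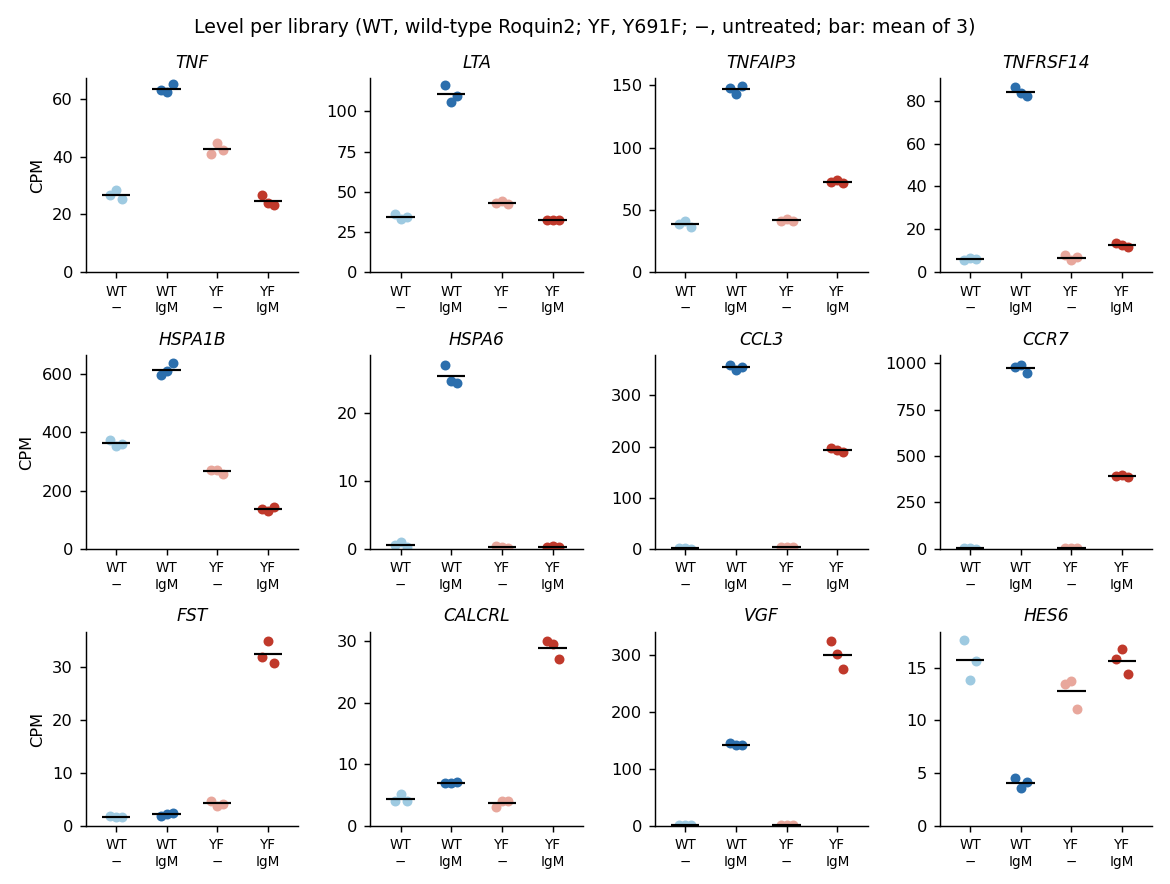
Level per library (CPM, linear axes from 0) of 12 genes in the 4 groups, WT (blue) and Y691F (red), untreated (pale) and with IgM (dark); points are libraries and the bar is the mean of 3. TNF, LTA and HSPA1B go up with IgM in WT and down in Y691F cells, and FST and CALCRL are highest in Y691F cells with IgM, at 32.4 and 28.9 CPM on average.

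In ribosome biogenesis 10 of 40 responses were above WT and 3 below (median difference 0.024), and with library totals 9 and 6. In glycolysis 13 were above and 5 below of 25, in cholesterol synthesis 11 and 6 of 26, in fatty acid synthesis 9 and 5 of 21 and among amino acid transporters 6 and 5 of 19, where 25.7% of all genes had a call. No mitochondrially encoded mRNA had one under either scaling. B cell receptor signalling genes were above WT in 15 and below in 5 of 30, and germinal center genes in 16 and 4 of 29. The falls of SYK and BCL6 were smaller than in WT by 0.38 and 0.82. DNA replication genes were above in 11 and below in 1 of 34 (9 and 4 with library totals), and interferon response genes in 10 and 1 of 22. For the plasma cell list the counts were 5 above and 13 below of 23. PRDM1 rose slightly more in Y691F cells (difference 0.26) and SLAMF7 less (difference -1.97). BCL2 rose less in Y691F cells (difference -0.67, adjusted p = 5.55e-27), with WT libraries at 697, 696 and 691.3 CPM untreated and 2888, 2971 and 2888 CPM with IgM.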

How the data were processed

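Gene counts and RPKM values were deposited by the authors in 1 table of 12 polyA+, dUTP-stranded libraries, per the labels' protocols and the file headers. The submitters' processing notes name STAR 2.5.0b, DESeq2 and GRCh38, and the counter, its strand setting and the annotation are, in the sources used here, not given. RPKM was not used for tests. Columns were matched to samples by genotype, treatment and replicate number. Counts were filtered (filterByExpr, at least 10 counts, total 15) and tested with edgeR 4.0.16's quasi-likelihood test (robust) in R 4.3.3, with TMM scaling, all 12 libraries and 1 coefficient per group, which share 1 estimate of the spread. CPM values were computed from the counts. The test was checked on simulated counts in which few genes changed, so that check does not cover the scaling or the share of genes called here. The p-values are two-sided and were adjusted by Benjamini-Hochberg over 15112 genes. Alternatives were library totals, DESeq2 size factors, DESeq2 1.42.0, limma-voom 3.58.1, other filters, a threshold of 0.01, a replicate block, only the 6 Y691F libraries and leaving out each library. Genes and lists were chosen with earlier results of these data known. Named are the 12 largest changes each way (8 among genes over 100 CPM), up to 6 genes of smallest p per list, the 8 largest differences each way and the 6 largest of opposite call, and 4 genes always. The 4 always named are RC3H2, RC3H1, TNFAIP3 and KLHL6. The largest changes were picked among called genes whose groups did not overlap. They needed a mean of at least 1 CPM over the 6 Y691F libraries, or 100 CPM in the higher group. Some genes that the rule names are not reported here. Replicate numbers did not pair the samples (same-number correlations 0.071, -0.032 and 0.13 in Y691F). Promoters are RefSeq GRCh38.p14 (10191 of 15112 genes matched).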

Additional observations from a re-analysis of the deposited data

Results flagged for a closer look

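The difference of the 2 IgM responses, Y691F minus WT, passed the interaction test for 3883 genes. The named genes among them with the largest differences were flagged for that reason, and groups of 3 libraries were not tested for outlying samples. Above the WT response were CPED1 (log2 difference 3.46), GATA4 (2.76), FST (2.64), CALCRL (2.31), LRRN3 (2.31), HES6 (2.24), CORO2B (2.24) and LBH (2.10). Below it were HSPA6 (-4.98), HSPB1 (-3.16), CCL3 (-3.03), TNFRSF14 (-2.87), IGFBP4 (-2.53), EGR3 (-2.45), BHLHE41 (-2.41), EGR1 (-2.39), LTA (-2.10), TNF (-2.03), HSPA1A (-1.90) and HSPA1B (-1.73).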

How the results depend on the processing

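Counts of called genes in Y691F cells stayed within 1.5 times of 5600 and 5853 under every alternative run. With the replicate block they were 5596 and 5856. A filter of 5 CPM in 3 libraries tested fewer genes and gave 698 and 1157 changes of at least 2-fold (higher and lower) in Y691F, 806 and 1338 in WT and 120 and 88 for the difference. DESeq2's Wald test gave 117 differences of at least 2-fold below WT against 186, and the cause was not tested. Of 4610 alternative values for 331 named genes, 4583 kept direction and call. With direction kept, 8 lost the call and 3 gained one, and 16 reversed direction, whatever their call. The reversals were in small changes: with library totals EPCAM -0.012, KLHL6 -0.12, MT-ND1 -0.011 and ZC3H12A -0.0046, and with the 5 CPM filter KLHL6 -0.0053. Under library totals KLHL6 gained a call as it reversed, and EPCAM, MT-ND1 and ZC3H12A lost theirs. N4BP1 was 0.0055 with DESeq2 size factors, 0.0057 with the Wald test, 0.0074 without a filter and -0.049 to 0.052 in fits without 1 library (0.00042, 0.0072 and 0.052 in 3 of them). Without 1 library CD8A ranged from -0.18 to 0.13, LBH from -0.23 to 0.062 and HSPA6 from -0.069 to 0.84, none of them called. With library totals RC3H2 (-0.19), N4BP1 (-0.17) and KLHL6 (-0.12) were called lower, and calls of the difference were 46.4% above WT against 57.1%. Of 1400 list counts, 38 moved by over 1.5 times. Reads limit the low genes, whose folds rest on 0 to 3 reads in 1 group.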

Other observations

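Antisense, lincRNA and immunoglobulin variable genes, which the lists above mostly leave out, fell more often than they rose with IgM in Y691F cells, and processed pseudogenes rose more often. Of 719 tested antisense genes, 394 fell and 102 rose, and 240 falls (33.4%) were at least 2-fold. Of 578 lincRNA genes, 291 fell and 95 rose, with 181 falls (31.3%) of at least 2-fold, beside 1509 (12.9%) of 11670 protein-coding genes. Their median log2 changes were -0.65 and -0.54, against 0.0084 for protein-coding genes. Of 1149 processed pseudogenes, which can share reads with their parent genes, 384 rose and 106 fell (median 0.22). Lower level goes with falls in these libraries, and its part in the difference between gene classes was not tested. Of 36 tested immunoglobulin variable genes, 25 fell and 0 rose by edgeR's adjusted test (median -1.45). All 3 tested T cell receptor constant genes rose, as did the 1 tested joining gene. Of 5 tested T cell receptor variable genes, 3 fell and 0 rose (median -1.21).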
